A study of Macaca mulatta with 38 samples.

Results

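WNT signalling was followed through 55 genes of the 34619 in the count table, picked by symbol alone. They are every WNT ligand, Frizzled receptor (FZD), R-spondin (RSPO), LGR receptor and SFRP or DKK inhibitor that the table names, together with WIF1, NOTUM, RNF43, ZNRF3, AXIN2, NKD1, LEF1, TCF7, TCF7L1, TCF7L2 and SP5. By role, 19 were ligands, 10 were Frizzled receptors, 7 were R-spondins or their LGR receptors, 10 were secreted inhibitors, 4 were inhibitors that act at the membrane or in the cytoplasm, and 5 were nuclear factors. A filter on low counts left 47 of the 55 for testing, among 20794 genes tested in all. The 8 that did not pass were WNT1, WNT2, WNT10A, WNT10B, LGR6, SFRP5, DKK4 and RSPO4. LGR6 had the highest count in a single library (48 reads, E42 Anterior day 3), and RSPO4 had 0 reads in all 38 libraries. Enough reads in 1 group sufficed to pass, so the 47 include genes detected mainly in 1 culture.

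The cells were wild-type neural stem cells dissected from the fetal cortex of rhesus macaque at embryonic day 42 (E42, Anterior and Posterior cortex) or 77 (E77, Frontal and Occipital cortex) and grown as 4 culture series. All series were expanded in N2 medium at low oxygen with FGF2 until day 5 and then differentiated without FGF2 in B27 medium with BDNF and NT-3. RNA of 2 wells was sequenced once per series and day: days 1, 3 and 5 (stem phase), 6, 7 and 8 (transition), and 11, 14 and 17, with day 20 at E77 (terminal phase). The number of fetuses behind a series was not given, so the days of a phase served as its replicates. Thus p-values of the phase tests measure the spread between days of a culture. In the age and region tests it is that spread after effects shared by a day are taken out. In the tests of single days it is the spread left after series and day are fitted. Age and region cannot be told apart from the fetus, the dissection or the culture run.

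WNT proteins are secreted, lipid-modified ligands. In the canonical branch they bind a Frizzled receptor and LRP5 or LRP6, the complex that destroys beta-catenin is stopped, and beta-catenin turns on target genes with LEF and TCF factors; other ligands act through ROR or RYK receptors on cell polarity. R-spondins bound to LGR receptors remove RNF43 and ZNRF3, the enzymes that clear Frizzled from the surface, and so raise the response, while SFRP, DKK, WIF1 and NOTUM proteins dampen it outside the cell. In the developing cortex the cortical hem at the medial edge is a known source of WNT ligands, and the pathway is known for its part in progenitor growth, regional patterning and the timing of neurogenesis.

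Counted reads per library ranged from 20149635 to 56363300, and 25 of the 55 genes reached a mean of 1 RPKM (reads scaled by transcript length and library size). All 12 cortical progenitor markers were detected in every series. They had a summed level of 5973 to 10848 CPM (counts scaled by library size with TMM factors) in E77 Occipital and 7428 to 14235 CPM in E77 Frontal, the series with the lowest and highest values. One series stood apart before any WNT gene was considered. The 11 mesenchymal and meningeal markers summed to 14169 to 39831 CPM in E42 Anterior, 55.2 to 358 in E42 Posterior, 85.3 to 197 in E77 Frontal and 51.5 to 100.0 in E77 Occipital. None of the 11 was at 0 reads in any series. The 12 hem and choroid plexus markers summed to at most 96.1 CPM, in E42 Anterior. In such bulk libraries, fewer cells of a type and less RNA per cell cannot be told apart.

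Per length of transcript, receptors, secreted inhibitors and nuclear factors filled the highest ranks, and no ligand did. DKK3 (mean 98.3 RPKM over the 38 libraries), a divergent Dickkopf protein, and SFRP1 (75.9 RPKM), a soluble protein with a Frizzled-like domain, stood highest. They were followed by the receptors FZD3 (61.9 RPKM) and FZD8 (31.9 RPKM) and the transcription factors TCF7L1 (21.1 RPKM) and TCF7L2 (18.0 RPKM). FZD2 (13.2 RPKM), FZD7 (12.4 RPKM) and SFRP4 (11.01 RPKM) completed the 9 genes with a mean of at least 10 RPKM. The SFRP4 mean came from E42 Anterior, with 7.21 to 83.8 RPKM, while no library of the other series exceeded 3.10 RPKM (median over all 38 libraries 1.72 RPKM). WNT7A led the ligands with 8.77 RPKM, ahead of WNT3 with 4.75 RPKM and WNT5A with 2.66 RPKM. The feedback genes AXIN2 (8.53 RPKM), ZNRF3 (7.51 RPKM) and NKD1 (3.998 RPKM) and the receptor LGR4 (5.46 RPKM) were of the same order as these ligands.

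**Figure D1:**
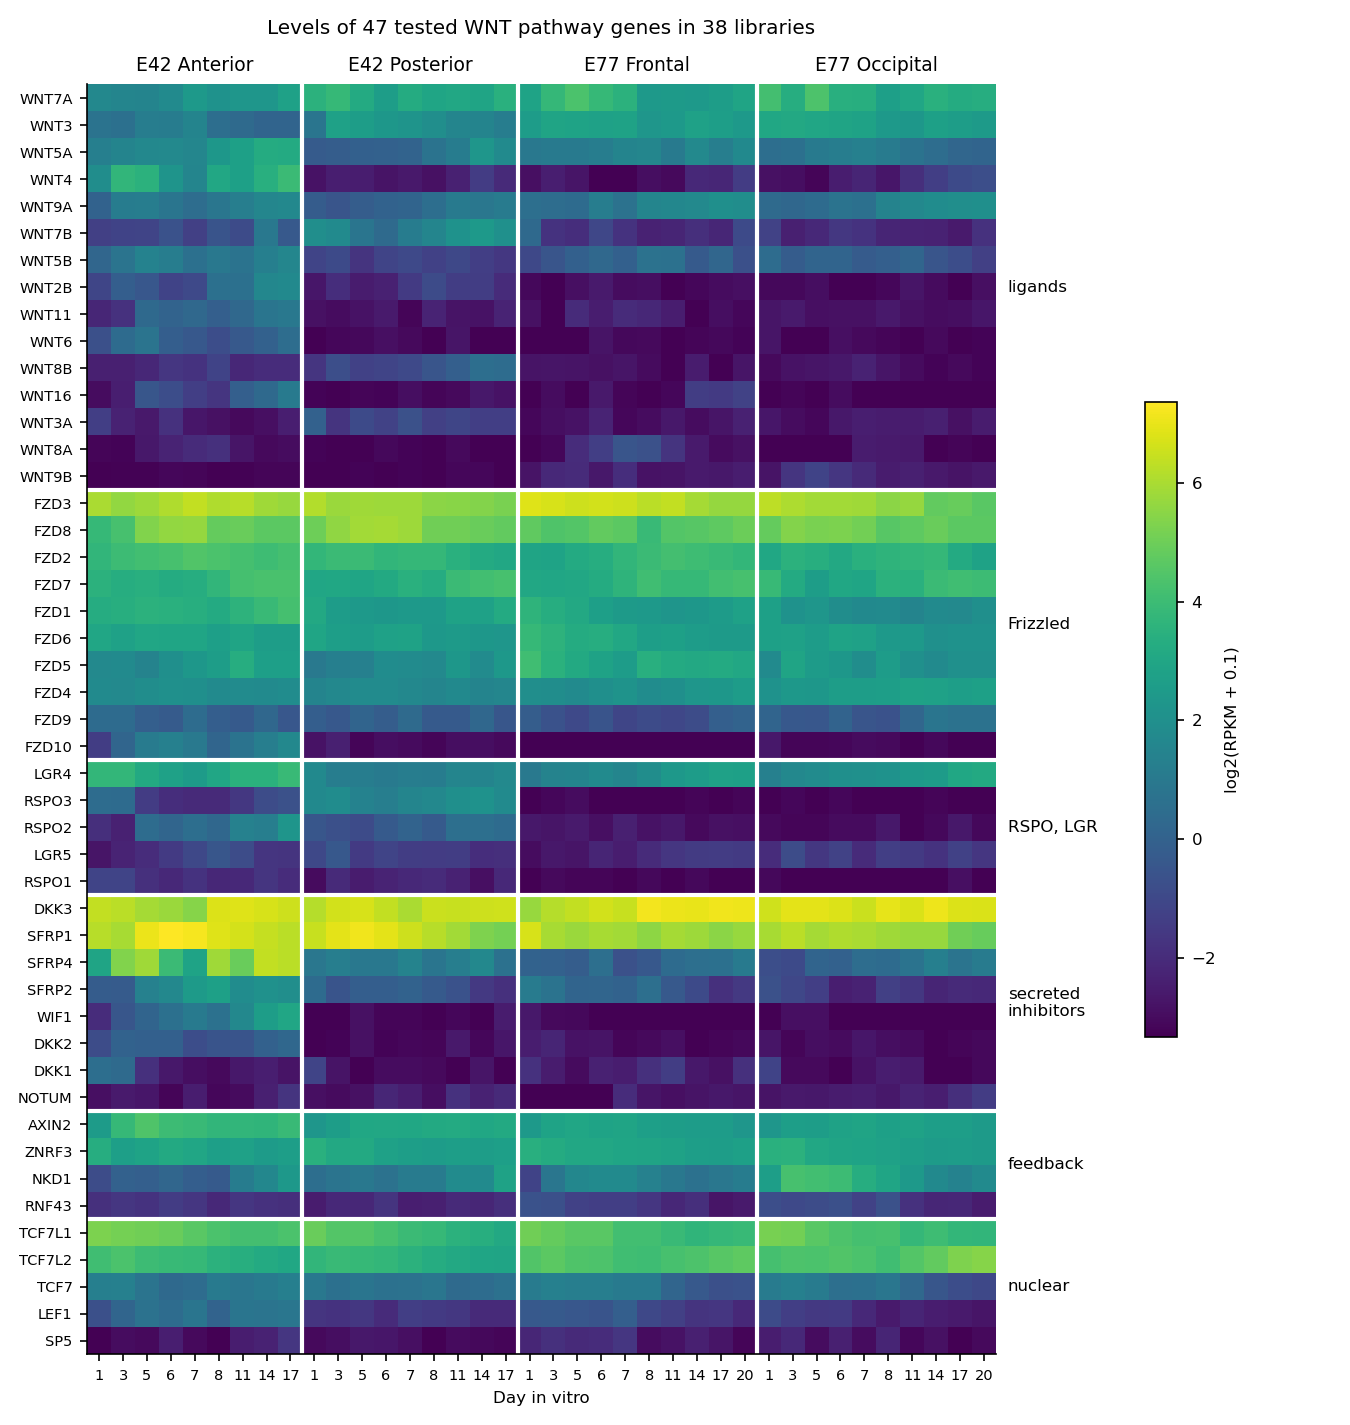
Level of each of the 47 tested genes (rows, grouped by role and ordered by mean RPKM) in the 38 libraries (columns, by series and day in vitro), as log2(RPKM + 0.1). DKK3, SFRP1 and FZD3 are bright throughout, and WNT4, WNT6, WIF1, SFRP4 and FZD10 are brightest in E42 Anterior.

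Differentiation was described by the terminal against the stem phase, with log2 fold changes (log2FC) ± SE from edgeR's quasi-likelihood test and p-values adjusted over all genes tested. TCF7L1 and ZNRF3 fell in all 4 series and FZD7 rose in all 4, while WNT9A rose in 3 of them. How many of all genes tested agreed across the series in this way was not counted. On average over the series, 12 of the 47 tested genes rose and 12 fell (51.1%, against 62.4% of all genes tested, 31.9% upward and 30.4% downward). The median log2 fold change was 0.08 over the 47 and 0.00 over all genes. By role, 3 of 15 ligands rose and 1 fell, 3 of 10 Frizzled genes rose and 2 fell, and 3 of 5 R-spondin and LGR genes rose and 0 fell. In the other roles 3 of 8 secreted inhibitors rose and 3 fell, 0 of 4 feedback genes rose and 2 fell, and 0 of 5 nuclear factors rose and 4 fell. Within single series, 14 rose and 7 fell in E42 Anterior (44.7%, all genes 34.1%, 17.9% up and 16.2% down), and 8 and 10 in E42 Posterior (38.3%, all genes 39.4%, 21.5% up and 17.8% down). At the older age 9 rose and 11 fell in E77 Frontal (42.6%, all genes 43.2%, 22.5% up and 20.7% down), and 8 and 13 in E77 Occipital (44.7%, all genes 41.2%, 21.6% up and 19.6% down). Leaving out single libraries gave 7 to 15 rises and 4 to 6 falls in E42 Anterior (7 rises without day 1, 9 without day 3, 4 falls without day 11 or 14). It gave 5 to 9 rises and 6 to 10 falls in E42 Posterior (5 rises without day 1 or 17, 6 falls without day 17) and 5 to 8 rises in E77 Occipital (5 without day 3). Alongside, all 8 markers of dividing cells fell and all 10 neuron markers rose on average. In E77 Occipital the neuron markers summed to 1950.5 to 2173 CPM in the stem phase and 3989 to 4852 CPM in the terminal phase. The dividing-cell markers summed to 1403 to 1706 CPM and then 486 to 767 CPM there, and 7 of the 11 mesenchymal markers also fell on average. Their part in the WNT gene changes was not tested.

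**Figure D2:**
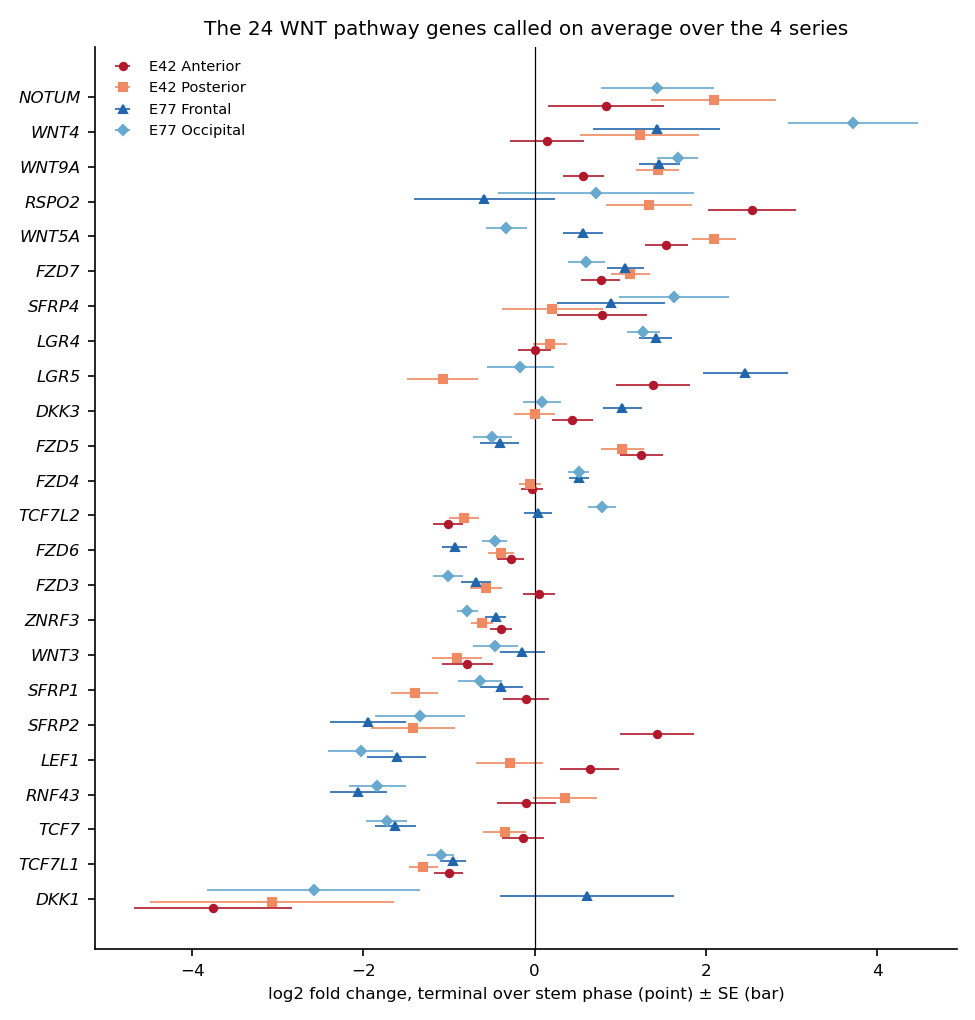
Log2 fold change of the terminal over the stem phase (horizontal axis, points with SE bars) in each of the 4 series, for the 24 genes called on average, ordered by that average; a series in which a gene had 0 reads in a phase has no point. TCF7L1 and ZNRF3 lie left of 0 and FZD7 right of 0 in all 4 series, while RNF43 and TCF7 lie farther left at E77 than at E42.

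Among the ligands, WNT9A, known from joint development, stood at 4.77 to 20.1 CPM (median 9.49) in the 12 stem libraries and at 14.3 to 32.9 CPM (median 24.7) in the 14 terminal ones. All 14 terminal libraries lay above the stem libraries of E42 Posterior, E77 Frontal and E77 Occipital, and the overlap came from E42 Anterior, whose stem libraries held 8.34, 19.1 and 20.1 CPM. The mean log2 change was 1.28 ± 0.12 (adjusted p = 1.44e-10), and that within E77 Frontal was 1.46 ± 0.24 (adjusted p = 1.31e-05). WNT5A, a ligand of the non-canonical branch, went in E42 Anterior from 17.2, 19.8 and 22.6 CPM in the stem phase to 45.8, 64.7 and 62.6 CPM in the terminal phase. In E42 Posterior it went from 4.84, 5.08 and 5.90 to 13.9, 31.7 and 22.0 CPM. Both E42 series separated the phases, with a mean log2 change over all 4 series of 0.97 ± 0.12 (adjusted p = 4.74e-08) and E42 changes of 1.54 ± 0.25 (adjusted p = 1.89e-05) and 2.09 ± 0.26 (adjusted p = 3.76e-07). In E77 Occipital, WNT5A stood at 8.96, 9.46 and 12.8 and then 10.2, 9.29, 6.85 and 6.79 CPM, overlapping values. The log2 changes at E77 were 0.56 ± 0.24 (adjusted p = 0.0527) in Frontal and -0.33 ± 0.24 (adjusted p = 0.274) in Occipital.

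WNT7A, a canonical ligand of the neuroepithelium, stood at 9.17, 16.4 and 26.3 CPM in the E77 Frontal stem libraries and 7.25, 6.61, 7.95 and 10.4 CPM in the terminal ones. E77 Occipital held 23.3, 13.1 and 26.2 and then 10.2, 15.4, 12.3 and 13.4 CPM, and both overlapped between phases. It fell in both (log2 change -1.10 ± 0.29, adjusted p = 0.00262 and -0.70 ± 0.28, adjusted p = 0.0493). In Frontal the call was lost without day 5 (-0.66). It rose in E42 Anterior from 4.44, 4.08 and 3.99 to 6.65, 6.67 and 9.503 CPM, where the phases did not overlap (log2FC 0.86 ± 0.32, adjusted p = 0.0350). WNT3, a canonical ligand, fell on average with a log2 change of -0.57 ± 0.14 (adjusted p = 6.91e-04). It passed in E42 Anterior (log2FC -0.79 ± 0.30, adjusted p = 0.0415) and E42 Posterior (log2FC -0.91 ± 0.29, adjusted p = 0.0132) and in neither E77 series. These E42 calls were lost in 4 and 2 of 6 fits that left out 1 library. WNT4, a ligand that also acts in kidney and gonad development, was called higher on average (log2FC 1.63 ± 0.34, adjusted p = 1.34e-04). Of the single series it passed in E77 Occipital, where it was low: 0.156, 0.117 and 0.0364 CPM in the stem phase and 0.630, 1.23, 1.66 and 1.998 CPM in the terminal phase (log2FC 3.72 ± 0.76, adjusted p = 2.42e-04). In E42 Anterior, the series with the most WNT4, the log2 change was 0.15 ± 0.43 (adjusted p = 0.834). WNT16 and WNT2B rose in E42 Anterior (log2FC 2.34 ± 0.74, adjusted p = 0.0147 and 2.01 ± 0.49, adjusted p = 0.00204). The WNT16 call was lost without day 1, 3 or 17 (1.80 to 1.92), and without day 5 the change was 4.45. WNT5B was called in no series. On the log2(RPKM + 1) scale the average WNT4 change was 0.22 and was not called.

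Of the Frizzled receptors, FZD7, a receptor tied to stem cell maintenance, rose in each culture. It stood at 50.6, 44.4 and 46.6 CPM in the E42 Anterior stem libraries and 77.3, 82.0 and 82.8 CPM in the terminal ones. E42 Posterior went from 31.4, 32.0 and 31.8 to 62.0, 69.1 and 75.6 CPM. E77 Frontal went from 32.3, 28.4 and 33.1 to 56.4, 55.0, 69.1 and 80.0 CPM and E77 Occipital from 59.1, 36.6 and 23.9 to 43.0, 65.7, 66.4 and 66.9 CPM. The phases did not overlap in 3 series, and in E77 Occipital the day 1 library (59.1 CPM) lay among the terminal ones. The log2 changes were 0.77 ± 0.23, 1.12 ± 0.23, 1.06 ± 0.22 and 0.60 ± 0.21, and the mean was 0.89 ± 0.11 (adjusted p = 4.20e-08) (highest adjusted p of a series 0.0245). FZD3, a receptor of axon guidance and planar polarity and the most abundant Frizzled here, went the other way in E77 Occipital, from 315, 270.4 and 231 to 199, 119.8, 119 and 103 CPM without overlap. On average it fell by 0.55 ± 0.09 on the log2 scale (adjusted p = 5.63e-06). FZD6, another planar polarity receptor, had a mean log2 change of -0.52 ± 0.07 (adjusted p = 4.61e-07).

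FZD5, known from eye and forebrain development, rose in E42 Anterior from 24.5, 26.0 and 20.9 to 74.3, 47.9 and 47.2 CPM and in E42 Posterior from 13.5, 16.0 and 17.4 to 34.9, 24.1 and 35.9 CPM, with no overlap in either. At E77 it did not pass, with log2 changes of -0.41 ± 0.23 and -0.50 ± 0.23, and the difference between the ages in the phase change was -1.59 ± 0.24 (adjusted p = 3.23e-05). FZD2 rose in E77 Frontal from 32.0, 29.9 and 41.1 to 77.8, 71.7, 66.99 and 63.0 CPM and fell in E42 Posterior from 59.7, 67.9 and 70.4 to 49.4, 40.8 and 37.2 CPM, again with no overlap. FZD4, which also serves the Norrin ligand of blood vessels, rose in both E77 series (log2FC 0.52 ± 0.12 and 0.51 ± 0.12) and did not pass in the E42 series (log2FC -0.03 ± 0.13 and -0.06 ± 0.13). FZD1 fell in both E77 series (log2FC -0.80 ± 0.17 and -0.61 ± 0.18), and FZD9 rose in E77 Occipital (log2FC 0.98 ± 0.32, adjusted p = 0.0149), a call lost without day 3 or 5 (0.90 and 0.86). FZD8 and FZD10 were called in none of the 4.

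LGR4, the more widely expressed R-spondin receptor, rose in E77 Frontal from 8.88, 11.9 and 13.5 CPM in the stem phase to 24.8, 28.6, 33.2 and 35.5 CPM in the terminal phase. E77 Occipital went from 12.01, 15.5 and 16.98 to 26.4, 30.7, 39.9 and 46.1 CPM. The phases separated fully in both, with log2 changes of 1.42 ± 0.19 (adjusted p = 9.51e-07) and 1.27 ± 0.19 (adjusted p = 4.19e-06). In E42 Anterior the same gene stood at 73.6, 74.0 and 49.2 and then 59.3, 58.7 and 78.9 CPM, and its lowest library was day 7 (29.4 CPM). LGR5, a receptor known as a stem cell marker in gut and skin, was low. It rose in E77 Frontal from 0.124, 0.255 and 0.246 to 1.01, 1.17, 1.22 and 1.25 CPM (log2FC 2.46 ± 0.50, adjusted p = 1.85e-04). It fell in E42 Posterior from 1.85, 2.95 and 1.17 to 1.31, 0.737 and 0.767 CPM (log2FC -1.07 ± 0.42, adjusted p = 0.0401), a call lost without day 3, 14 or 17 (-1.01 to -0.76). RSPO2 rose in E42 Anterior from 0.671, 0.393 and 5.08 to 9.42, 8.71 and 17.7 CPM (log2FC 2.54 ± 0.51, adjusted p = 2.73e-04), and without day 5 the log2 change was 4.44. The average RSPO2 change over the 4 series was 1.002 ± 0.40 (adjusted p = 0.0301); without the E42 Anterior series it was 0.46 and did not pass, nor did it without day 11 of E77 Frontal or day 3, 5 or 17 of E77 Occipital (0.77 to 0.97).

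Of the secreted inhibitors, SFRP1 fell in E42 Posterior from 87.4, 120.4 and 144 to 58.8, 39.2 and 35.2 CPM, with no overlap (log2FC -1.40 ± 0.27, adjusted p = 1.78e-04). SFRP2, a close relative, stood at 4.01, 2.89 and 1.97 CPM in the E77 Frontal stem libraries and 1.39, 0.840, 0.358 and 0.515 CPM in the terminal ones, and it fell there (log2FC -1.95 ± 0.44, adjusted p = 6.85e-04). It rose in E42 Anterior, from 1.72, 1.66 and 5.68 to 7.54, 8.94 and 8.06 CPM (log2FC 1.43 ± 0.43, adjusted p = 0.0104), and the phases did not overlap in either series. The mean SFRP2 change was -0.82 ± 0.24 (adjusted p = 0.00333). DKK3 rose in E77 Frontal from 165, 217 and 278 to 428, 416, 461 and 485 CPM (log2FC 1.03 ± 0.23, adjusted p = 5.44e-04). SFRP4 rose in E77 Occipital from 0.861, 0.743 and 1.68 to 2.69, 4.29, 2.81 and 3.74 CPM (log2FC 1.62 ± 0.64, adjusted p = 0.0428), a call lost without day 1, 3, 14 or 20 (1.41 to 1.57). WIF1, which binds WNT ligands directly, rose in E42 Anterior, from 0.383, 1.51 and 2.42 over 3.33, 4.43 and 3.38 to 7.18, 14.4 and 18.1 CPM (log2FC 3.19 ± 0.55, adjusted p = 1.35e-04). DKK1, which blocks LRP5 and LRP6, went the other way there, from 2.75, 2.39 and 0.363 to 0.119, 0.169 and 0.0944 CPM (log2FC -3.76 ± 0.92, adjusted p = 0.00205). Both changes took place in the series that holds the mesenchymal markers, whose sum was 18475 to 39831 CPM in its stem phase and 16987 to 26878 CPM in its terminal phase. The part of those cells in the result was not tested.

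The feedback inhibitors did not move as a group. ZNRF3, a membrane ubiquitin ligase that removes Frizzled, held 54.4 to 90.2 CPM (median 68.2) in the stem phase and 44.9 to 54.8 CPM (median 47.2) in the terminal phase. The phases did not overlap in 3 series, and in E42 Anterior the day 3 library (54.4 CPM) lay just under that of day 11 (54.7 CPM). The mean log2 change was -0.56 ± 0.06 (adjusted p = 5.70e-09). RNF43, its partner enzyme, was low and fell at E77, from 2.97, 2.72 and 1.81 to 0.717, 0.949, 0.286 and 0.450 CPM in Frontal and from 2.82, 2.42 and 2.62 to 1.05, 0.736, 0.721 and 0.444 CPM in Occipital. These changes of -2.06 ± 0.34 (adjusted p = 1.33e-05) and -1.84 ± 0.33 (adjusted p = 4.74e-05) had no called counterpart at E42, where the log2 changes were -0.10 ± 0.35 and 0.36 ± 0.37. The age difference was -2.08 ± 0.35 (adjusted p = 1.30e-04).

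NKD1, a cytoplasmic inhibitor that binds Dishevelled, fell in E77 Occipital and rose in both E42 series. In E77 Occipital it stood at 28.8, 87.9 and 78.8 CPM in the stem phase, 68.5, 43.7 and 34.6 CPM in the transition and 23.9, 15.9, 11.8 and 16.2 CPM in the terminal phase. E42 Anterior went from 2.30, 4.59 and 4.38 to 10.3, 14.6 and 24.9 CPM and E42 Posterior from 6.16, 7.41 and 8.75 to 16.2, 15.5 and 31.6 CPM. The stem and terminal libraries of these 3 series did not overlap, and the direction was downward in the first and upward in both E42 series. E77 Frontal, with 1.53, 7.31 and 13.7 and then 8.26, 6.68, 8.02 and 10.5 CPM, did not pass. The log2 changes were -1.95 ± 0.42 in E77 Occipital, 1.51 ± 0.46 in E42 Posterior and 2.14 ± 0.48 in E42 Anterior, and the age difference was -2.72 ± 0.45 (adjusted p = 1.28e-04). The E42 Posterior call was lost without day 1 or 17 (1.33 and 1.03). AXIN2, a scaffold of the destruction complex and the common readout of canonical signalling, was not called in any series; its log2 changes lay between -0.21 and 0.45.

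Among the nuclear factors, TCF7L1, which mostly represses target genes, fell in each series without overlap: 66.6 to 126 CPM (median 92.7) in the stem phase became 25.5 to 63.0 CPM (median 41.1) in the terminal phase (log2FC -1.09 ± 0.08, adjusted p = 9.55e-13). At E42 the change was -1.30 ± 0.17 in Posterior and -1.005 ± 0.17 in Anterior. TCF7L2, an activator or repressor depending on its isoform, changed in opposite directions. In E42 Anterior it went from 87.5, 104 and 81.9 to 49.9, 45.6 and 40.2 CPM, and in E42 Posterior from 59.8, 67.9 and 67.9 to 39.8, 35.7 and 34.5 CPM. E77 Occipital moved the opposite way, from 85.9, 96.6 and 90.5 to 104, 139, 179 and 207 CPM, and all 3 shifts were without overlap. E77 Frontal held 99.1, 108 and 99.9 and then 85.6, 93.5, 111 and 131 CPM and did not pass (log2FC 0.04 ± 0.16, adjusted p = 0.860). The 3 called log2 changes were -1.01 ± 0.17, -0.83 ± 0.18 and 0.79 ± 0.16, with an age difference of 1.34 ± 0.17 (adjusted p = 3.61e-06). TCF7L2 is also known from maturing oligodendrocytes. The 8 oligodendrocyte markers summed to 912 to 1056 CPM in the E77 Occipital stem phase and 1507 to 3738 CPM in its terminal phase. E77 Frontal held 431 to 586 and then 471 to 1353 CPM. In the terminal phase E42 Posterior held 149.9 to 190.1 CPM and E42 Anterior 504 to 636 CPM. The terminal marker ranges of E42 Anterior and E77 Frontal overlapped. None of the 8 markers was at 0 reads in these groups. Their part in the result was not tested.

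TCF7, an activating factor known from T cells and early embryos, fell in E77 Frontal from 7.10, 7.74 and 7.92 to 3.58, 2.37, 1.79 and 2.09 CPM and in E77 Occipital from 7.35, 8.72 and 7.25 to 3.86, 2.42, 1.70 and 1.46 CPM. LEF1, the activating factor that is also a target of the pathway, fell in E77 Frontal from 4.54, 4.42 and 4.35 to 2.02, 1.35, 1.504 and 0.965 CPM and in E77 Occipital from 3.01, 2.03 and 1.64 to 0.756, 0.583, 0.469 and 0.381 CPM. The LEF1 changes were -1.61 ± 0.35 and -2.03 ± 0.38, and the TCF7 change in Occipital was -1.73 ± 0.24. The means over the 4 series were -0.82 ± 0.18 (adjusted p = 2.54e-04) for LEF1 and -0.96 ± 0.12 (adjusted p = 5.63e-08) for TCF7. Neither gene overlapped between the phases at E77, and neither passed at E42, where the LEF1 changes were 0.64 ± 0.34 and -0.29 ± 0.39. The age difference was -1.44 ± 0.25 (adjusted p = 1.65e-04) for TCF7 and -1.995 ± 0.37 (adjusted p = 3.59e-04) for LEF1. SP5, a direct target, was near the detection limit, with at most 0.661 CPM in any library.

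**Figure D3:**
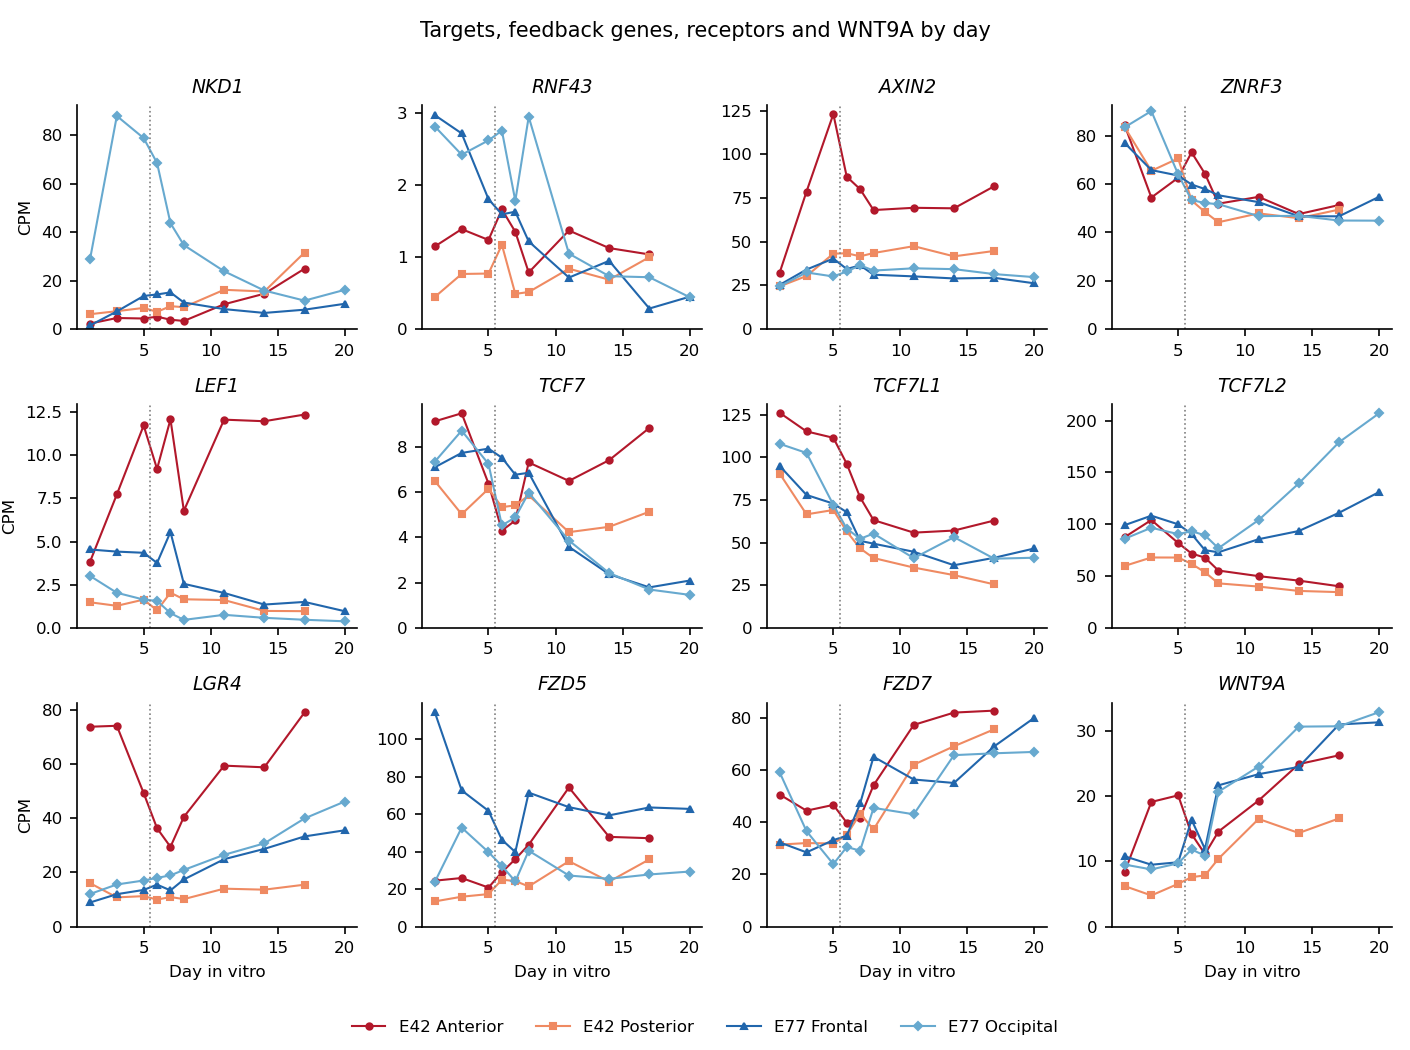
CPM (vertical axis, linear, from 0) against day in vitro for 12 feedback genes, nuclear factors, receptors and WNT9A, 1 line per series with 1 library per point; the dotted line marks the withdrawal of FGF2 after day 5. NKD1 peaks at 87.9 CPM on day 3 of E77 Occipital, TCF7L1 declines in all 4 series, and TCF7L2 reaches 207 CPM on day 20 of E77 Occipital while it declines at E42.

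Tested over all 47 genes, the terminal against stem change was higher at E77 than at E42 for 5 and lower for 14 (40.4%, against 19.4% of all genes tested, 9.46% upward and 9.95% downward). Besides TCF7L2, those higher at E77 by this test were led by LGR4 (log2 difference 1.25 ± 0.19, adjusted p = 4.61e-05), FZD2 (log2 difference 0.84 ± 0.18, adjusted p = 0.00182) and FZD4 (log2 difference 0.56 ± 0.12, adjusted p = 0.00220). The transition against stem comparison called 5 rises and 7 falls (25.5%, all genes 41.6%, 21.6% up and 20.0% down), and terminal against transition 8 rises and 10 falls (38.3%, all genes 41.9%, 22.7% up and 19.2% down). TCF7L1 (log2FC -0.64 ± 0.08, adjusted p = 5.61e-07), FZD1 (log2FC -0.50 ± 0.09, adjusted p = 8.01e-05) and ZNRF3 (log2FC -0.38 ± 0.07, adjusted p = 2.87e-05) had already fallen by the transition. So had TCF7 (log2FC -0.35 ± 0.13) and TCF7L2 (log2FC -0.31 ± 0.09), and WNT5A had risen (log2FC 0.42 ± 0.13). LGR5 (log2FC 0.60 ± 0.23) and WNT9A (log2FC 0.41 ± 0.12) had risen too. The LGR5 call was lost in 11 of 24 fits that left out 1 library. Without the E42 Anterior series the TCF7 call was lost. WNT9A (log2FC 0.87 ± 0.12, adjusted p = 9.43e-07), LGR4 (log2FC 0.81 ± 0.10, adjusted p = 1.07e-07) and FZD7 (log2FC 0.72 ± 0.11, adjusted p = 5.61e-06) rose between the transition and the terminal phase. RNF43 fell (log2FC -0.75 ± 0.17, adjusted p = 9.28e-04) over the same interval. WNT4 also rose (log2FC 2.15 ± 0.37, and 2.98 without day 8 of E77 Frontal). It held 0, 0 and 3 reads on days 6, 7 and 8 of E77 Frontal, so the size of this rise depends on few reads. SFRP4 rose by 0.80 ± 0.29, a call lost in 9 of 26 fits that left out 1 library. SFRP2 (log2FC -0.80 ± 0.25), TCF7 (log2FC -0.61 ± 0.12), LEF1 (log2FC -0.57 ± 0.19) and SFRP1 (log2FC -0.57 ± 0.13) fell. These phase comparisons share libraries, so they are not independent of one another.

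The comparison of fetal age contrasted E77 with E42 within a phase. The R-spondins, WNT7B and WNT8B were lower at E77 than at E42, while WNT3 and WNT9B were higher. RSPO1, RSPO2, RSPO3, WNT2B, WNT3A and WNT8B passed the low-count filter through E42, with at most 9 reads in any E77 library. WNT9B passed through E77, with at most 4 reads in any E42 library. The direction of these genes was thus close to fixed by the filter, and the counts of genes called below include such genes. In the stem phase 11 of the 47 genes were higher at E77 and 20 lower (66.0%, against 60.2% of all genes tested, 28.8% upward and 31.4% downward). In the terminal phase 6 were higher and 23 lower (61.7%, all genes 45.0%, 20.6% up and 24.4% down). The median log2 difference over the 47 was -0.55 in the stem phase, where it was -0.03 over all genes, and -0.46 in the terminal phase, where it was -0.02 over all genes. All 5 tested R-spondin and LGR genes were lower at E77 in the stem phase over both region pairs together, but RSPO1, RSPO2 and RSPO3 alone were so in each pair. LGR4 and LGR5 passed in E77 Frontal against E42 Anterior and not in E77 Occipital against E42 Posterior, where the LGR4 difference was 0.23 (adjusted p = 0.290). In the stem phase 4 of 10 Frizzled genes were higher and 4 lower. WNT6, WIF1 and FZD10 were called lower at E77 with 0 reads in at least 1 group compared, so no fold is given. They reached at most 0.196, 0.124 and 0.196 CPM in any E77 library. E42 Posterior was also low, with 18, 11 and 31 reads over its 9 libraries. None of these genes was called lower in both region pairs, so the calls rest on E42 Anterior. Of the 11 mesenchymal and meningeal markers, 10 were lower at E77 in the stem phase. Between E77 Occipital and E42 Posterior alone, which leaves out E42 Anterior and its mesenchymal markers, 11 were higher and 11 lower in the stem phase, where 40.8% of all genes tested were called (20.2% upward and 20.6% downward). In the terminal phase 9 were higher and 13 lower, where 35.9% of all genes tested were called (16.2% upward and 19.7% downward).

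RSPO3, the R-spondin of the hem and of blood vessels, was one of the lower genes in both region pairs. In E42 Posterior it held 10.1, 10.9 and 8.41 CPM in the stem phase and 12.5, 13.3 and 10.5 CPM in the terminal phase. E42 Anterior held 4.44, 4.32 and 0.968 and then 0.775, 1.52 and 1.73 CPM. At E77 no library exceeded 0.0821 CPM, with 5 reads over the 10 Frontal and 3 over the 10 Occipital libraries, so the adjusted p (1.33e-12 for the stem phase) is given without a fold. RSPO2 spanned 0.393 to 17.7 CPM (median 3.99) at E42 and 0 to 0.313 CPM (median 0.126) at E77. The 2 ages did not overlap (log2FC -4.16 ± 0.50, adjusted p = 1.43e-07 in the stem phase, -6.01 ± 0.44, adjusted p = 3.47e-11 in the terminal phase), and without day 5 of E42 Anterior the stem difference was -3.20. RSPO1 reached at most 0.144 CPM at E77 and 1.72 CPM at E42. RSPO1, RSPO2 and RSPO3 passed the low-count filter through E42, so these p-values and the separation of the ages add no further support.

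Of the ligands, WNT7B, a canonical ligand of cortical neurons and choroid plexus, was highest in E42 Posterior, with 16.1, 13.8 and 7.36 CPM in the stem phase and 17.8, 21.6 and 16.5 CPM in the terminal phase. The E77 Occipital libraries held 1.37, 0.391 and 0.547 and 0.462, 0.460, 0.289 and 0.825 CPM. The terminal libraries of E42 Posterior lay above those of each other series, and the terminal log2 difference between the ages was -4.24 ± 0.38 (adjusted p = 2.97e-09). WNT8B, a ligand of the hem and dorsomedial cortex, stood at 0.755, 1.68 and 1.14 CPM in the E42 Posterior stem libraries and 2.99, 4.71 and 4.47 CPM in the terminal ones, against 0 to 0.349 CPM (median 0.160) at E77. It rose within E42 Posterior (log2FC 1.76 ± 0.41, adjusted p = 9.31e-04), and the terminal age difference was -4.37 ± 0.40 (adjusted p = 1.46e-09). WNT3A, the classical hem ligand, held 2.52, 0.568 and 1.27 CPM in the E42 Posterior stem libraries and 0.0347 to 0.290 CPM (median 0.150) at E77 (log2FC -3.14 ± 0.47, adjusted p = 3.36e-06 in the stem phase). WNT8B and WNT3A passed the low-count filter through E42, so their separation by age adds no further support. The 12 hem and choroid plexus markers summed to 5.37 to 9.07 CPM in E42 Posterior, the lowest range of the 4 series.

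WNT9B, a ligand known from kidney and face development, was the reverse case: 0.305 to 2.48 CPM (median 0.527) at E77, 0 to 0.115 CPM (median 0.0302) at E42, and no overlap. WNT9B passed the low-count filter through E77, so this separation adds no further support. It peaked in the E77 Occipital stem phase, with 0.352, 1.56 and 2.48 CPM. The age difference was 5.48 ± 0.51 (adjusted p = 2.06e-09) in the stem phase on 4 reads at E42 and 2.79 ± 0.45 (adjusted p = 1.40e-05) in the terminal phase, and without day 5 of E42 Posterior the stem difference was 6.47. WNT3 stood at 16.0 to 23.7 CPM (median 19.5) in the 8 terminal libraries of E77 and at 3.49 to 9.34 CPM (median 5.78) in the 6 of E42, without overlap (log2FC 1.81 ± 0.18, adjusted p = 1.57e-08). In the stem phase the ages overlapped, with E42 Posterior at 5.62, 21.9 and 20.9 CPM (log2FC 1.31 ± 0.18, adjusted p = 1.07e-06). FZD5, RNF43, WNT3 and WNT9B were higher at E77 in both region pairs of the stem phase, and FZD2, RSPO1, RSPO2, RSPO3, WNT2B and WNT3A were lower in both. In the terminal phase FZD4, TCF7L2, WNT3 and WNT9B were higher in both pairs and 11 genes were lower in both, among them AXIN2, WNT5A and TCF7. The share of all genes tested that was called alike in both pairs was not counted. The pairs gave opposite calls for TCF7L1, WNT5A, WNT5B and WNT9A in the stem phase and for LGR4, TCF7L1 and WNT5B in the terminal phase. Terminal LGR4 was higher in E77 Occipital than in E42 Posterior (1.18) and lower in E77 Frontal than in E42 Anterior (-1.21, both log2).

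**Figure D4:**
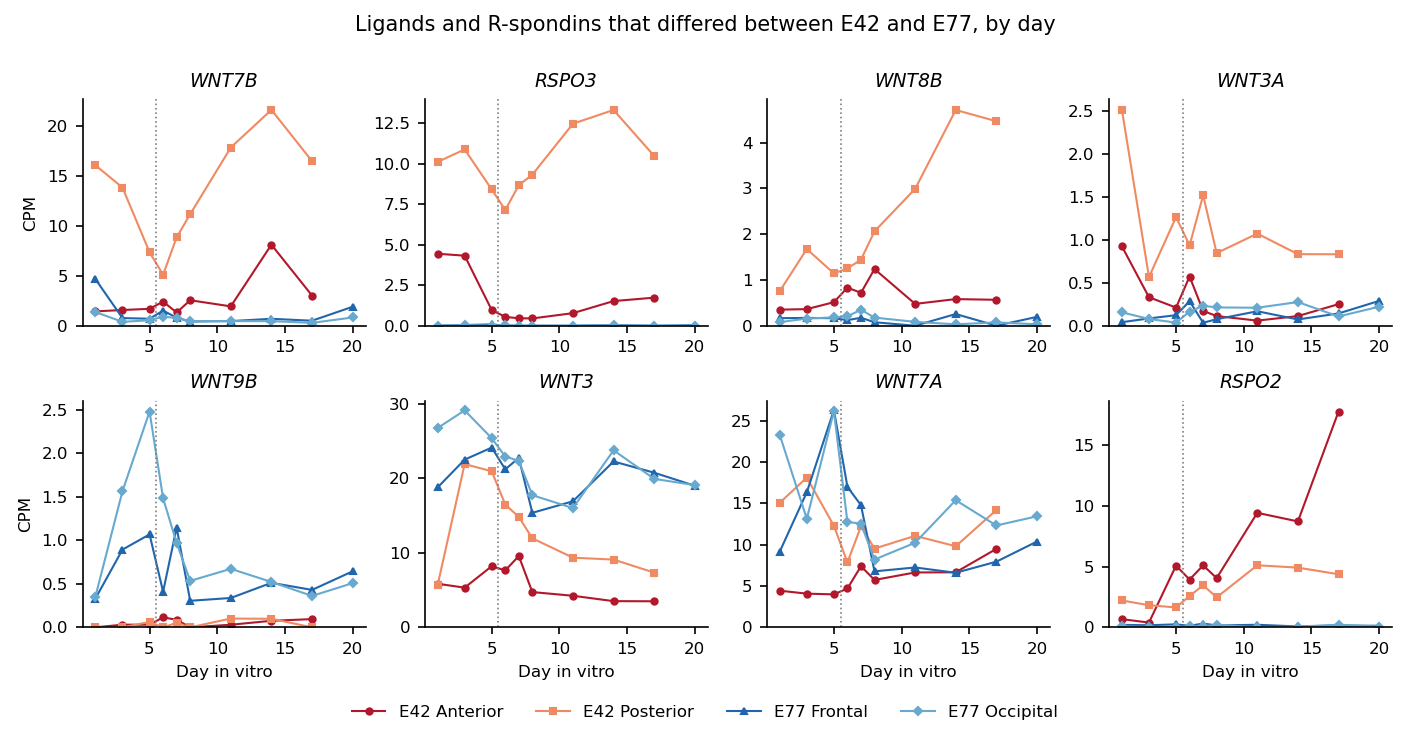
CPM (vertical axis, linear, from 0) against day in vitro for 6 ligands and 2 R-spondins that differed between E42 and E77, 1 line per series with 1 library per point; the dotted line marks FGF2 withdrawal after day 5. WNT7B, RSPO3, WNT8B and WNT3A run highest in E42 Posterior, WNT9B lies above its E42 values in all 20 E77 libraries, and RSPO2 reaches 17.7 CPM in E42 Anterior.

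Receptors and feedback genes also differed with age. FZD5 stood at 114, 72.8 and 61.8 CPM in the E77 Frontal stem libraries and 23.9, 52.9 and 39.8 CPM in those of E77 Occipital. The 6 stem libraries of E42 held 13.5 to 26.0 CPM (median 19.1), which day 1 of E77 Occipital alone overlapped, and the age difference was 1.56 ± 0.17 (adjusted p = 7.78e-08). RNF43 held 1.81 to 2.97 CPM (median 2.67) in the stem libraries of E77 and 0.448 to 1.39 CPM (median 0.961) in those of E42, without overlap (log2FC 1.48 ± 0.22, adjusted p = 3.47e-06). For NKD1 the stem age difference of 1.90 ± 0.28 (adjusted p = 4.43e-06) came with E77 Occipital, and E77 Frontal against E42 Anterior alone gave 0.83 and did not pass. In the terminal phase TCF7L2 stood at 85.6 to 207 CPM (median 121) at E77 and 34.5 to 49.9 CPM (median 39.99) at E42 (log2FC 1.504 ± 0.09, adjusted p = 4.33e-13). FZD4 stood at 43.2 to 82.3 CPM (median 69.7) and 30.6 to 42.4 CPM (median 38.5) (log2FC 0.74 ± 0.08, adjusted p = 4.46e-08), and DKK3 differed by 0.32 ± 0.12 (adjusted p = 0.0304), a call lost without day 14 or 17 of E42 Anterior, day 17 of E77 Frontal or day 14 of E77 Occipital (0.24 to 0.32). AXIN2 stood at 26.2 to 34.8 CPM (median 30.0) and 41.6 to 81.7 CPM (median 58.3) (log2FC -0.86 ± 0.12, adjusted p = 1.17e-06). TCF7L2, FZD4 and AXIN2 did not overlap between the ages in the terminal phase.

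The comparison of region at E42 set Anterior against Posterior over all days, with day as a block. Ligands, secreted inhibitors and receptors of many kinds were higher in Anterior. In all, 31 of the 47 genes were higher and 8 lower (83.0%, against 55.3% of all genes tested, 25.1% upward and 30.3% downward). Of the 31, WNT6, WNT11, WIF1, DKK2 and FZD10 held at most 37 reads summed over any other series. They passed the low-count filter through E42 Anterior, so their direction here was close to fixed by the filter. The 47 had a median log2 difference of 0.67, where it was -0.06 over all genes. The higher genes included 9 of 15 ligands, 8 of 10 Frizzled genes, 6 of 8 secreted inhibitors and 4 of 5 nuclear factors. All 11 mesenchymal and meningeal markers were higher in Anterior as well, with a median log2 difference of 8.03, as were 7 of 10 tested hem and choroid plexus markers and 5 of 6 endothelial markers. Regional identity and these cells cannot be told apart in this comparison.

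WNT4 spanned 11.1 to 62.4 CPM (median 33.0) in E42 Anterior and 0.147 to 1.03 CPM (median 0.309) in E42 Posterior (log2FC 6.61 ± 0.21, adjusted p = 8.19e-19). WNT6, a ligand of surface ectoderm and mesenchyme, spanned 1.91 to 6.95 CPM (median 3.33) and 0 to 0.202 CPM (median 0.0568) (log2FC 5.83 ± 0.42, adjusted p = 2.25e-11). SFRP4 spanned 12.9 to 153 CPM (median 77.1) and 2.50 to 5.30 CPM (median 3.25) (log2FC 4.08 ± 0.34, adjusted p = 1.20e-09). Each of these 3 genes was higher in every E42 Anterior library than in any of the 29 other libraries, and the same held for WIF1, DKK2 and FZD10. For WNT6, WIF1, DKK2 and FZD10, which passed the filter through E42 Anterior, this separation adds no further support. How many of all genes tested separated in this way was not counted. WIF1 spanned 0.383 to 18.1 CPM (median 3.38) in E42 Anterior and 0 to 0.167 CPM (median 0.0258) in E42 Posterior, where it had 11 reads in all (log2FC 6.72 ± 0.35, adjusted p = 2.77e-11). DKK2, a relative of DKK1, spanned 1.84 to 4.22 CPM (median 3.41) and 0 to 0.235 CPM (median 0.0491) (log2FC 5.25 ± 0.34, adjusted p = 8.20e-13). FZD10 spanned 1.02 to 10.5 CPM (median 6.42) and 0.0309 to 0.284 CPM (median 0.0982) (log2FC 5.70 ± 0.37, adjusted p = 1.74e-10), and it had 0 reads in all 10 E77 Frontal libraries. Without single E42 Posterior libraries these differences reached 7.33 for WNT6 (day 11), 7.55 for WIF1 (day 5) and 5.84 for DKK2 (day 5).

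**Figure D5:**
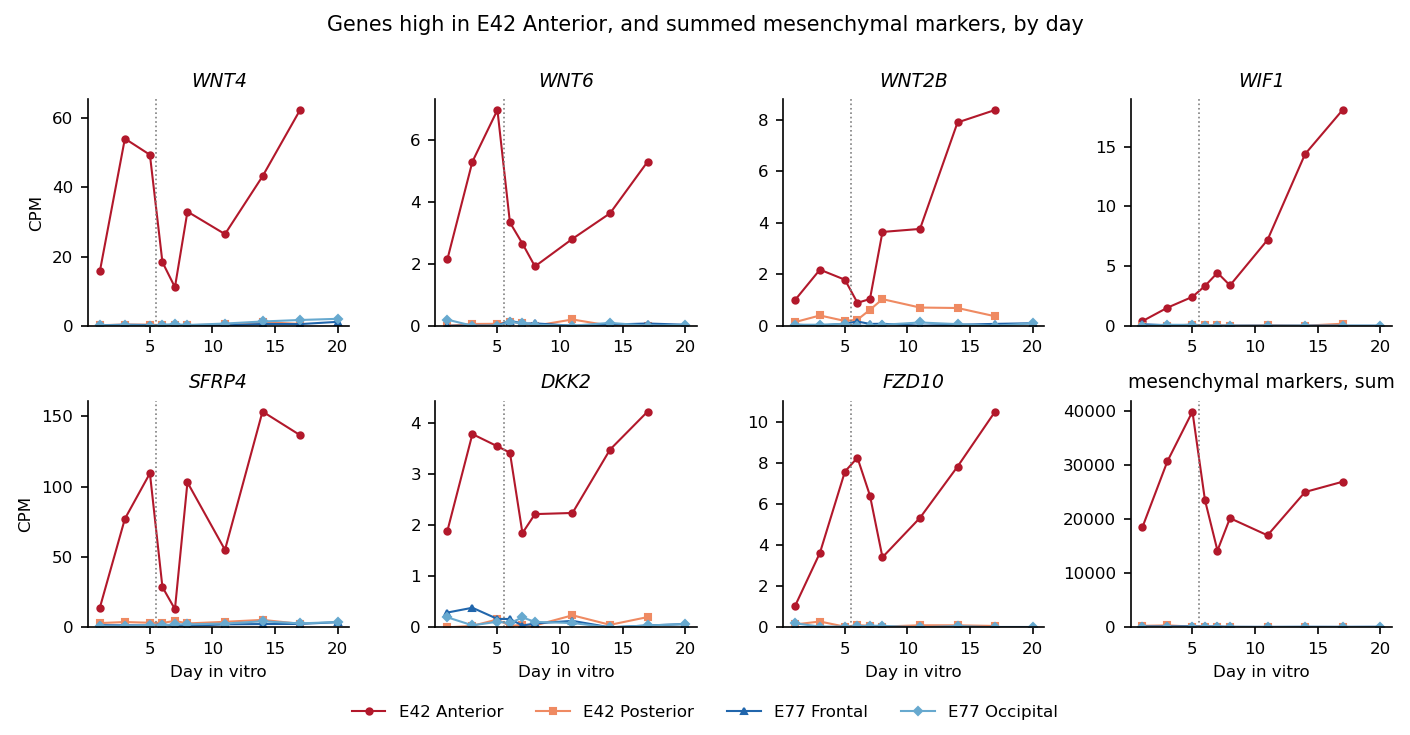
CPM (vertical axis, linear, from 0) against day in vitro for 7 genes highest in E42 Anterior and for the sum of 11 mesenchymal and meningeal markers (last panel), 1 line per series with 1 library per point; the dotted line marks FGF2 withdrawal after day 5. The E42 Anterior line lies above the others on each shared day in each panel, and the lowest marker sum in that series is 14169 CPM.

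WNT2B, WNT11 and WNT16 were also higher in E42 Anterior than in Posterior, with at most 8.37, 4.18 and 6.95 CPM, each on day 17 of E42 Anterior. WNT16 began at 0.0958 CPM on day 1 there, below the 1.16 CPM of E77 Frontal on day 20. WNT5A spanned 17.2 to 64.7 CPM (median 22.6) and 4.84 to 31.7 CPM (median 6.27) (log2FC 1.69 ± 0.12, adjusted p = 2.95e-12). LGR4 spanned 29.4 to 78.9 CPM (median 58.7) in E42 Anterior and 9.95 to 16.0 CPM (median 11.2) in E42 Posterior, without overlap (log2FC 2.103 ± 0.10, adjusted p = 9.56e-16). LEF1 spanned 3.83 to 12.4 CPM (median 11.7) and 0.967 to 2.04 CPM (median 1.48), also without overlap (log2FC 2.77 ± 0.19, adjusted p = 2.52e-12). AXIN2 overlapped through its day 1 library of 32.4 CPM in E42 Anterior; the range was 32.4 to 123 CPM (median 78.7) there and 24.5 to 47.5 CPM (median 43.2) in E42 Posterior (log2FC 0.91 ± 0.09, adjusted p = 8.84e-09). The 8 genes lower in Anterior were RSPO3 (log2FC -3.02 ± 0.20, adjusted p = 6.11e-12), WNT7B (log2FC -2.39 ± 0.26, adjusted p = 2.94e-08), WNT3A (log2FC -2.09 ± 0.30, adjusted p = 1.35e-06) and WNT8B (log2FC -1.72 ± 0.22, adjusted p = 3.61e-07), and with smaller differences WNT3 (log2FC -1.14 ± 0.15, adjusted p = 5.33e-07), WNT7A, NKD1 and FZD8. For these genes the higher levels lay in the series with few mesenchymal markers.

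At E77, where the mesenchymal markers were far lower, Frontal and Occipital were compared in the same way. There, 9 of the 47 genes were higher in Frontal and 8 lower (36.2%, against 30.1% of all genes tested, 16.3% upward and 13.8% downward). NKD1, lower in Frontal, spanned 1.53 to 15.1 CPM (median 9.36) in Frontal and 11.8 to 87.9 CPM (median 31.7) in Occipital (log2FC -2.04 ± 0.20, adjusted p = 5.07e-08). Every stem and transition library of Occipital lay above those of Frontal. SFRP2 spanned 0.358 to 4.01 CPM (median 1.86) and 0.165 to 1.06 CPM (median 0.375) (log2FC 1.94 ± 0.28, adjusted p = 4.31e-06). LEF1 spanned 0.965 to 5.56 CPM (median 3.16) and 0.381 to 3.01 CPM (median 0.804) (log2FC 1.47 ± 0.20, adjusted p = 1.35e-06). Both genes overlapped between the regions.

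FZD5 spanned 39.8 to 114 CPM (median 63.3) in Frontal and 23.9 to 52.9 CPM (median 28.6) in Occipital (log2FC 0.99 ± 0.13, adjusted p = 2.59e-06). FZD3 (log2FC 0.73 ± 0.05, adjusted p = 3.87e-11), FZD1 (log2FC 0.79 ± 0.07, adjusted p = 1.49e-09) and FZD6 were also higher in Frontal. FZD4 (log2FC -0.53 ± 0.06, adjusted p = 2.92e-07), FZD9 (log2FC -0.73 ± 0.18, adjusted p = 0.00205), FZD8 (log2FC -0.41 ± 0.12, adjusted p = 0.0100) and LGR5 (log2FC -1.23 ± 0.24, adjusted p = 2.09e-04) were lower in Frontal. WNT5A, FZD1, WNT16, LEF1, SFRP2, WNT8A, FZD3, FZD6 and FZD5 were higher in both the E42 Anterior and the E77 Frontal culture than in their partner. FZD8 and NKD1 were lower in both, FZD10, LGR4 and FZD4 were higher in E42 Anterior and lower in E77 Frontal, and no gene showed the reverse. The matching shares of all genes tested were not counted. Of the cell markers, 6 of the 11 mesenchymal ones were higher in E77 Frontal and 6 of the 8 oligodendrocyte ones were lower, and their part in these differences was not tested. Tested directly, the region difference changed between the ages for 27 of the 47 genes, 6 upward and 21 downward at E77 (57.4%, against 38.6% of all genes tested, 20.6% upward and 18.0% downward). WNT6, WNT11, WIF1, DKK2 and FZD10 passed the low-count filter through E42 Anterior, so a downward direction was close to fixed for them. The largest of those with reads in every group were WNT4 (log2 difference -7.70 ± 0.68, adjusted p = 1.25e-09), DKK2 (log2 difference -4.91 ± 0.73, adjusted p = 5.40e-06) and SFRP4 (log2 difference -4.21 ± 0.54, adjusted p = 2.15e-06) downward. Without day 8 of E77 Frontal the WNT4 value was -8.73, and without day 5 of E42 Posterior the DKK2 value was -5.51. WNT4 held 0, 0 and 3 reads on days 6, 7 and 8 of E77 Frontal. DKK2 held 1, 2 and 1 reads on these days of E42 Posterior, so the size of both differences depends on few reads. The largest upward were WNT7B (log2 difference 3.18 ± 0.41, adjusted p = 1.24e-06) and WNT8B (log2 difference 1.85 ± 0.46, adjusted p = 0.00236). The mesenchymal markers of E42 Anterior move with this difference too, and their part in it was not tested.

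Growth with FGF2 was described by day 5 against day 1 over the 4 series, with 1 library per series and day. Of the 47 genes, 3 were higher on day 5 and 3 lower (12.8%, against 14.5% of all genes tested, 7.88% upward and 6.65% downward). AXIN2 rose from 32.4 to 123 CPM in E42 Anterior and from 24.5 to 43.2 CPM in E42 Posterior. It went from 25.3 to 40.4 CPM in E77 Frontal and from 24.6 to 30.1 CPM in E77 Occipital. All 4 series moved upward, most in E42 Anterior, with a log2 change of 0.93 ± 0.15 (adjusted p = 1.79e-04). DKK1 fell from 2.75 to 0.363 CPM in E42 Anterior and from 0.644 to 0 in E42 Posterior. It fell from 0.330 to 0.0411 in E77 Frontal and from 0.626 to 0.0364 in E77 Occipital (log2FC -3.48 ± 0.85, adjusted p = 0.00608), and without day 5 of E42 Anterior the change was -4.79. The other calls were WNT9B and WNT16 upward and TCF7L1 (log2FC -0.38 ± 0.11, adjusted p = 0.0176) and ZNRF3 (log2FC -0.33 ± 0.11, adjusted p = 0.0429) downward. The WNT16 call rests on E42 Anterior, with 3 reads on day 1 and 76 on day 5. In the other series WNT16 held 0 or 1 reads on these days. The TCF7L1 call was lost without day 1 of E42 Posterior or day 5 of E77 Occipital (-0.32 and -0.33), and the ZNRF3 call without either of these or day 5 of E42 Anterior or E77 Frontal (-0.33 to -0.30). The counts depend on single libraries: without day 1 of E42 Anterior 7 genes were lower, without day 5 of E77 Occipital 1 was lower, and without day 1 of E77 Frontal 5 were higher.

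Day 6 against day 5, the first day without FGF2, called 0 of the 47 genes with edgeR's quasi-likelihood test, and 1 of the 47 had an unadjusted p under 0.05; among all genes tested 0.457% were called. With DESeq2 and with limma on either RPKM scale the count was also 0. AXIN2 in E42 Anterior went from 123 CPM on day 5 to 87.2 CPM on day 6.

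A further 72 genes of the pathway in the count table, 67 of them tested, were described by list. Of the 67, 32 rose and 15 fell from the stem to the terminal phase, with a median log2 change of 0.17 (70.1%, against 62.4% of all genes tested, 31.9% upward and 30.4% downward). The counts of the single lists below stand against the same shares. Of the 14 Dishevelled and destruction complex genes 10 rose and 1 fell, led by AMER2, a membrane recruiter of APC, at 1.74 ± 0.11 (adjusted p = 5.28e-14). Both secretion genes rose. PORCN, which attaches the lipid, changed by 0.47 ± 0.09 and WLS, which carries ligands to the surface, changed by 0.45 ± 0.12 (log2). Of the 10 beta-catenin and nuclear cofactor genes 4 rose and 3 fell, led by the corepressors TLE2 (log2FC 3.96 ± 0.28, adjusted p = 1.07e-12) and TLE5 (log2FC 1.23 ± 0.10, adjusted p = 2.09e-11). Of 9 further target genes tested 7 rose and 1 fell. DACT1 (log2FC 2.82 ± 0.19, adjusted p = 5.20e-13) and CCND1 (log2FC 2.63 ± 0.29, adjusted p = 7.03e-09) were among the 7. JAG1, a Notch ligand, fell (log2FC -1.86 ± 0.15, adjusted p = 9.43e-12).

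Among 8 co-receptors 1 rose and 2 fell: ROR1, a receptor of WNT5A, rose (log2FC 1.84 ± 0.28, adjusted p = 1.25e-06), and PTK7 (log2FC -0.69 ± 0.08) and LRP5 (log2FC -0.51 ± 0.07) fell. Of 15 secreted and surface modulators tested 4 rose and 6 fell, with DRAXIN, an axon guidance protein that also inhibits WNT signalling, highest (log2FC 3.18 ± 0.29, adjusted p = 1.99e-10). Of 9 planar cell polarity genes 4 rose and 2 fell, with CELSR3 highest (log2FC 2.31 ± 0.30, adjusted p = 1.11e-07). By age, 14 of the 67 were higher at E77 in the stem phase and 30 lower (65.7%, against 60.2% of all genes tested, 28.8% upward and 31.4% downward). In the terminal phase 14 were higher and 25 lower (58.2%, against 45.0% of all genes tested, 20.6% upward and 24.4% downward). DACT1 (log2FC -2.92 ± 0.14, adjusted p = 1.97e-14) and the polarity gene PRICKLE1 (log2FC -1.57 ± 0.14, adjusted p = 1.76e-09) were lower at E77 in the stem phase, and CD44 was higher (log2FC 1.67 ± 0.29, adjusted p = 5.60e-05). Between the E42 regions 31 were higher in Anterior and 18 lower (73.1%, against 55.3% of all genes tested, 25.1% upward and 30.3% downward). The largest differences were ADGRA2, a partner of RECK in the response of vessels to WNT7 ligands (log2FC 7.85 ± 0.19, adjusted p = 1.47e-19), and FRZB, a secreted inhibitor (log2FC 5.79 ± 0.18, adjusted p = 3.02e-18), beside the mesenchymal markers that were higher in the same series. At E77, 15 were higher in Frontal and 17 lower (47.8%, against 30.1% of all genes tested, 16.3% upward and 13.8% downward). Among them were FRZB (log2FC 2.37 ± 0.15, adjusted p = 1.09e-11) and PRICKLE2 (log2FC 1.38 ± 0.14, adjusted p = 1.52e-08) higher in Frontal and AMER2 (log2FC -0.80 ± 0.08, adjusted p = 2.57e-08) lower.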

How the data were processed

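The authors deposited 1 table of raw read counts per gene and 1 table of RPKM for 38 libraries, with reads aligned by STAR and counted by featureCounts, per the submitters' processing notes; versions, genome build and annotation are not given in the sources used here. The labels' protocols state poly(A) selection and strand-specific libraries from 2 pooled wells. The deposited RPKM values fit counts scaled by library and a fixed gene length (the implied length varied by a CV of at most 4.06e-05 over 13494 genes), and they were used for levels between genes. Columns of other samples numbered 0.

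Counts were tested with edgeR 4.0.16 in R 4.3.3 (quasi-likelihood test, TMM factors of 0.8989 to 1.104, edgeR's filter with a minimum count of 10), with Benjamini-Hochberg adjustment over the 20794 genes tested and a threshold of 0.05. Phases were compared in a fit of 12 groups (26 residual degrees of freedom), ages and regions with the day in vitro as a block (19), and days with the series as a block (25). CPM values use the same TMM factors. Age and region fits are paired by day, which the labels give; over 55 same-day pairs of libraries, deviations from the group means correlated at -0.096 to 0.68 (median 0.22), with 44 over 0.1. All 703 library pairs differed by more than counting noise (lowest ratio 3.29), so no library was counted as a duplicate. Depth differed by library from 20149635 to 56363300 counted reads (median 27597365.5).

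The values given were mostly drawn from up to 5 rises and 5 falls per comparison among passing genes that reach 1 CPM. Others came from the 3 most abundant genes of each role and, for other pathway genes, from up to 3 passing genes per list. Not every such gene is given for each comparison. The genes and lists were chosen with earlier results of these data known. Alternatives were DESeq2 1.42.0 (size factors, Wald test), no low-count filter, limma 3.58.1 with a pseudocount of 1 or 0.1 on log2 RPKM (at least 1 RPKM in 3 libraries), only the libraries compared, no replicate block, 1 value per day, and fits without day 1, day 20, the E42 Anterior series, 1 region pair or each library in turn. No sequence is shown, since none was used here.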

Additional observations from a re-analysis of the deposited data

Results flagged for a closer look

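In groups of 4 libraries, 52 combinations of a gene and a group were checked for 1 library far from the other 3, and 4 were so marked; chance marks about 1 in 20. All lay in the terminal phase of E77 Occipital. FZD6 held 20.9 CPM on day 11, where the other days held 16.8 to 17.3 CPM. FZD7 held 43.0 CPM on day 11, below the 65.7 to 66.9 CPM of the other days. FZD8 held 102 CPM on day 14, above 79.5 to 82.1 CPM, and TCF7L1 held 53.2 CPM on day 14, above 40.6 to 41.1 CPM.

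The terminal against stem change differed between the ages by a direct test of the difference (E77 minus E42, log2 difference ± SE, edgeR's quasi-likelihood test). It was higher at E77 for TCF7L2 (log2 1.34 ± 0.17, adjusted p = 3.61e-06), LGR4 (log2 1.25 ± 0.19, adjusted p = 4.61e-05), FZD2 (log2 0.84 ± 0.18, adjusted p = 0.00182) and FZD4 (log2 0.56 ± 0.12, adjusted p = 0.00220). It was lower at E77 for NKD1 (log2 -2.72 ± 0.45, adjusted p = 1.28e-04), RNF43 (log2 -2.08 ± 0.35, adjusted p = 1.30e-04), WNT8B (log2 -2.01 ± 0.57, adjusted p = 0.0138) and LEF1 (log2 -1.995 ± 0.37, adjusted p = 3.59e-04). WNT8B held at most 9 reads in any E77 library, so its phase change at E77 is poorly measured.

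The region difference (Frontal minus Occipital at E77, less Anterior minus Posterior at E42) was above 0 for WNT7B (log2 3.18 ± 0.41, adjusted p = 1.24e-06), WNT8B (log2 1.85 ± 0.46, adjusted p = 0.00236), WNT3 (log2 1.001 ± 0.20, adjusted p = 2.98e-04), WNT7A (log2 0.81 ± 0.24, adjusted p = 0.00904) and FZD3 (log2 0.31 ± 0.08, adjusted p = 0.00187). It was below 0 for WNT4 (log2 -7.70 ± 0.68, adjusted p = 1.25e-09), DKK2 (log2 -4.91 ± 0.73, adjusted p = 5.40e-06) and SFRP4 (log2 -4.21 ± 0.54, adjusted p = 2.15e-06), 3 genes of the series with the most mesenchymal markers. The part of those cells in the difference was not tested. The sizes for WNT4 and DKK2 depend on few reads in some groups, and WNT8B had few reads at E77. DKK2 passed the low-count filter through E42 Anterior, so its direction was close to fixed.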

How the results depend on the processing

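With DESeq2's size factors or Wald test no count moved by over 1.5 times and no named gene lost its call. Transition against stem rises went from 5 to 2 without day 1 and to 1 with 1 value per day, which leaves fewer values, and falls from 7 to 4 without day 1. Terminal against transition rises went from 8 to 13 on log2(RPKM + 1) and to 4 with 1 value per day, and falls from 10 to 3 with 1 value per day. In E42 Anterior, terminal against stem rises went from 14 to 8 with only the libraries compared and to 7 without day 1, and falls from 7 to 4 with only the libraries compared and to 3 on either RPKM scale; in E42 Posterior, falls went from 10 to 6 on log2(RPKM + 1). Genes lower at E77 went from 20 to 11 in the stem phase and from 23 to 13 in the terminal phase with E77 Occipital and E42 Posterior alone, where WNT6 reversed in the stem phase to 0.72 (adjusted p = 0.70). Genes lower in Frontal went from 8 to 5 on either RPKM scale, the age difference from 5 to 8 higher without day 1, and day 5 against day 1 from 3 to 1 higher on either RPKM scale. The RPKM fits hold 35 of the 47 genes; otherwise the cause was not tested.

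Leaving out each library gave 3 to 8 transition rises (3 without E42 Posterior day 6, 8 without E42 Anterior day 5), 7 to 15 rises and 4 to 6 falls in E42 Anterior, 5 to 9 rises and 6 to 10 falls in E42 Posterior, 5 to 8 rises in E77 Occipital, 5 to 8 genes with a higher age difference (8 without E42 Posterior day 1 or E77 Frontal day 14), and on day 5 against day 1 2 to 5 higher (5 without E77 Frontal day 1) and 1 to 7 lower (1 without E77 Occipital day 5, 7 without E42 Anterior day 1). Of 131 named gene results, 23 lost their call without some library and 0 reversed. Without the replicate block of day, no count moved by over 1.5 times; DKK3 by age in the terminal phase (0.34, adjusted p = 0.092), FZD8 between E77 regions (-0.41, adjusted p = 0.078) and FZD3 in the region difference (0.30, adjusted p = 0.14) lost their calls under edgeR. No paired analysis was possible for the phases because each day lies in 1 phase. Genes with few reads, such as RSPO3 at E77, are limited by depth.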
